A study of Arabidopsis thaliana with 12 samples.

Results

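CRR21, LPA66, OTP84 and CFM3B are 4 nuclear genes of Arabidopsis thaliana whose proteins act on RNA inside the chloroplast. They were taken by the identifiers of their probe sets, with earlier results of these data known. Counts of the factors set beside shares of all probe sets are therefore a description, not a test of the factors as a set. The factors are 4 of 13356 genes that had a probe set of the array to themselves. All 4 were among the 14016 probe sets that were tested, which reached a log2 value of 4 on at least 3 arrays. Each gene was measured by 1 probe set, and the loci are AT5G55740 for CRR21, AT5G48910 for LPA66, AT3G57430 for OTP84 and AT4G14510 for CFM3B.

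The arrays measured total RNA from the aerial part of 10-day-old CCA1-ox seedlings in the Columbia background, harvested at 4 times of day with 3 arrays per time. CCA1 is a MYB-type transcription factor of the plant circadian clock, and CCA1-ox plants overexpress it, in the published line from a constitutive viral promoter. The agar medium held 1% sucrose, and each day had 16 h of light followed by 8 h of darkness. Times are given in hours after the lights came on, as Zeitgeber time (ZT): ZT0 was the moment of lights on, ZT6 and ZT12 lay in the light, and ZT18 lay in the dark. Titles, source names and descriptions gave the same time for every array, while a label for the hour of harvest differed from them on 9 of 12 and was not used for the groups. All 12 arrays carried CCA1-ox, and the wild type named in the design text was not analysed here, so no value below separates an effect of the transgene from the time of day. The labels do not give the number of transgenic lines, nor say whether replicate arrays came from separate plants. P-values therefore rest on differences among replicate arrays that could be partly technical, and 3 arrays per time limit the precision.

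Chloroplast transcripts are edited after transcription, when chosen cytidines are converted to uridines, and several contain group II introns that need protein helpers to be spliced. Pentatricopeptide repeat (PPR) proteins bind the RNA just upstream of an editing site and mark the cytidine to be changed, and each acts on few sites. CRR21 is needed for editing of a site in ndhD, which encodes a subunit of the chloroplast NADH dehydrogenase-like complex. LPA66 is needed for editing of psbF, which encodes a subunit of cytochrome b559 in photosystem II. OTP84 is needed for editing of sites in ndhB, ndhF and psbZ. CFM3B carries RNA-binding CRM domains and is, like CFM3A, an Arabidopsis relative of the maize splicing factor CFM3. The arrays measured how much transcript of these genes was present, not how much editing or splicing took place.

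The transcripts of all 4 factors were more abundant at ZT6 than at ZT0 and less abundant at ZT18 than at ZT6. Each had its highest mean at ZT6, as did 24.6% of the tested probe sets. CRR21, LPA66 and CFM3B had their lowest mean at ZT0, as did 29.6% of the tested probe sets, and OTP84 had its lowest at ZT18, as did 24.5%. In RNA from whole shoots, a change in the RNA per cell and a change in the share of cells that express a gene cannot be told apart. The moderated F-test over the 4 times in limma, adjusted by the Benjamini-Hochberg method over all tested probe sets, was passed by 4 of 4 factors at a threshold of 0.05. Since 70.1% of the tested probe sets passed it too, a pass by itself was common on these arrays.

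CRR21 had log2 values of 7.56, 7.73 and 8.25 at ZT0, 9.21, 9.58 and 9.50 at ZT6, 9.33, 9.02 and 9.25 at ZT12, and 8.24, 8.59 and 8.49 at ZT18. The ZT6 and ZT12 arrays lay above every array of ZT0 and ZT18, while ZT0 and ZT18 touched, because the highest ZT0 array and the lowest ZT18 array had nearly the same value. Its means were 7.85 ± 0.36 at ZT0, 9.43 ± 0.19 at ZT6, 9.20 ± 0.16 at ZT12, with 8.44 ± 0.18 at ZT18 (SD, n = 3 each). The highest and lowest means differed by 3.00-fold (limma F-test, adjusted p = 2.09e-05), and 13.7% of the tested probe sets had a range as large.

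LPA66 had log2 values of 7.52, 7.94 and 8.31 at ZT0, 9.09, 9.54 and 9.68 at ZT6, 8.92, 9.25 and 9.26 at ZT12, and 8.15, 8.60 and 8.61 at ZT18. Its daytime arrays again lay above all arrays of ZT0 and ZT18, and ZT0 and ZT18 overlapped. The means were 7.93 ± 0.40 at ZT0, 9.44 ± 0.31 at ZT6, 9.14 ± 0.19 at ZT12, with 8.45 ± 0.26 at ZT18 (SD, n = 3 each), a range of 2.85-fold (limma F-test, adjusted p = 0.000171). A range as large was found in 15.3% of the tested probe sets. Replicate 1 was the lowest of the 3 arrays at 4 of 4 times for LPA66, and replicate 3 was the highest at 4 of 4. For CRR21, replicate 1 was the lowest at 3 of 4 times.

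OTP84 had log2 values of 5.86, 5.25 and 6.27 at ZT0, 6.50, 6.53 and 6.92 at ZT6, 6.26, 6.09 and 6.29 at ZT12, and 5.48, 6.17 and 5.30 at ZT18. Its 3 ZT6 arrays lay above all the others, but ZT0, ZT12 and ZT18 overlapped each other. The means were 5.79 ± 0.51 at ZT0, 6.65 ± 0.24 at ZT6, 6.22 ± 0.11 at ZT12, with 5.65 ± 0.46 at ZT18 (SD, n = 3 each). The range was 2.00-fold (limma F-test, adjusted p = 0.0173), and 33.1% of the tested probe sets had a range as large. The adjusted p of OTP84 became 0.0694 with no filter on dim probe sets and 0.0695 without replicate 3 of ZT6. The call for OTP84 thus depended on the filter and on that array.

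CFM3B, the splicing factor, had log2 values of 8.55, 8.37 and 8.93 at ZT0, 9.24, 9.42 and 9.44 at ZT6, 9.36, 9.10 and 9.16 at ZT12, and 8.64, 8.66 and 8.77 at ZT18. Day and night separated fully, since every ZT6 and ZT12 array exceeded every ZT0 and ZT18 array. The share of tested probe sets that separated in this way is not given here. The same holds for the separations of CRR21, LPA66 and OTP84 above, so none is read as particular to the factors. The means were 8.62 ± 0.29 at ZT0, 9.37 ± 0.11 at ZT6, 9.21 ± 0.14 at ZT12, with 8.69 ± 0.07 at ZT18 (SD, n = 3 each), a range of 1.68-fold (limma F-test, adjusted p = 0.000797). A range as large was found in 48.5% of the tested probe sets. The order of means ZT0, ZT18, ZT12, ZT6, low to high, was shared by CRR21, LPA66 and CFM3B, and by 11.3% of the tested probe sets.

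**Figure D1:**
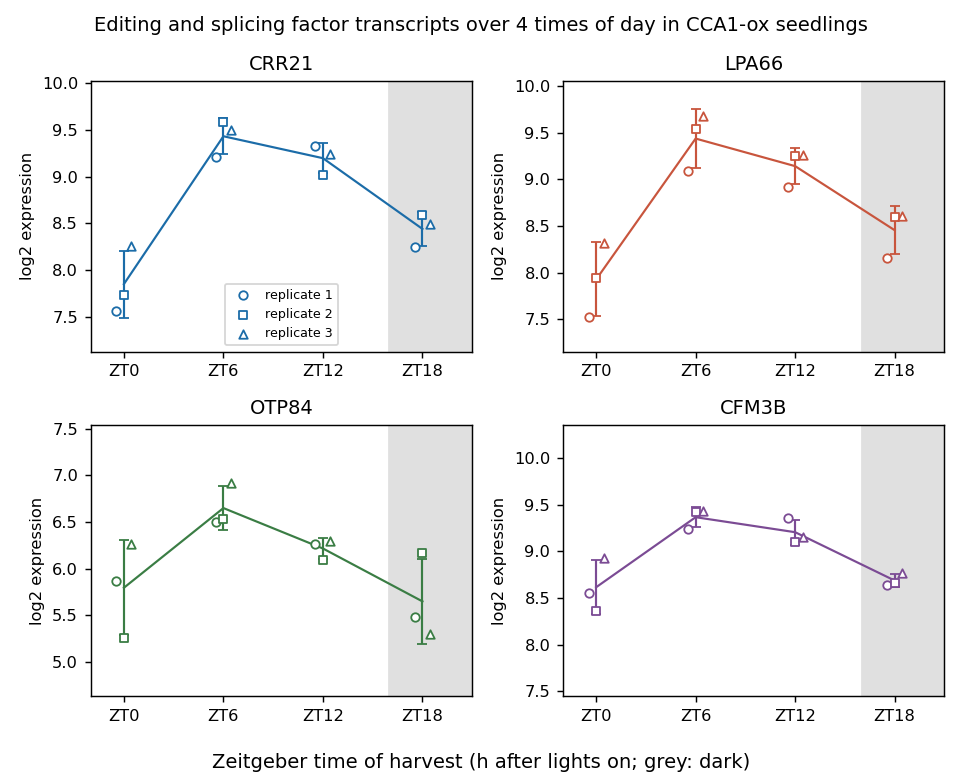
Log2 expression (vertical axis) of CRR21, LPA66, OTP84 and CFM3B against Zeitgeber time of harvest in hours; open symbols are single arrays (circle, square and triangle for replicates 1, 2 and 3), and lines and bars give the mean and SD of 3 arrays, with the dark period in grey. Each factor has its highest mean at ZT6, such as 9.43 for CRR21, and the vertical axes span the same number of log2 units.

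The comparison of ZT6 with ZT0 asked how the transcripts stood after some hours of light. All 4 factors rose, against 27.6% of the tested probe sets that were called higher. CRR21 averaged 9.43 at ZT6, against 7.85 at ZT0, a log2 difference of 1.58 (SE 0.18, limma adjusted p = 9.36e-06). LPA66 averaged 9.44 at ZT6, against 7.93 at ZT0, a difference of 1.51 (SE 0.21, limma adjusted p = 6.50e-05). The level at ZT6 was thus 3.00-fold that at ZT0 for CRR21 and 2.85-fold for LPA66.

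The measured rises of OTP84 and CFM3B were smaller. In the test of pairs below, CRR21 and CFM3B differed in time course, while the other pairs did not pass. The result for LPA66 and CFM3B depended on the settings. OTP84 averaged 6.65 at ZT6, against 5.79 at ZT0, a log2 difference of 0.85 (SE 0.27, limma adjusted p = 0.0152). CFM3B averaged 9.37 at ZT6, against 8.62 at ZT0, a difference of 0.75 (SE 0.14, limma adjusted p = 0.000621). For each of the 4, all 3 ZT6 arrays lay above all 3 ZT0 arrays, which held for 32.5% of the tested probe sets. OTP84 lost its call without replicate 2 of ZT0 (adjusted p = 0.0747), without replicate 3 of ZT6 (0.0663) and with no filter (0.0515), whereas the other 3 kept theirs under every alternative run.

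From ZT6 to ZT12, within the light period, none of the 4 factors passed the limma test, against 2.12% of the tested probe sets. None of the 4 had an unadjusted p under 0.05, which 2744 of the 14016 tested probe sets had. The log2 differences, ZT12 minus ZT6, were -0.24 for CRR21, with a 95% interval of -0.62 to 0.15, and -0.30 for LPA66, with an interval of -0.76 to 0.17. For OTP84 the difference was -0.43, with an interval of -1.01 to 0.14, and all its ZT12 arrays lay below all its ZT6 arrays, as in 18.6% of the tested probe sets. CFM3B differed by -0.16, with an interval of -0.47 to 0.15. Each interval includes 0 and reaches further below it than above.

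From the light into the dark, CRR21, LPA66 and CFM3B fell, so that 3 of 4 factors were lower at ZT18 than at ZT12, against 24.4% of the tested probe sets. CRR21 averaged 8.44 at ZT18, against 9.20 at ZT12, a log2 difference of -0.76 (SE 0.18, limma adjusted p = 0.00359). CFM3B averaged 8.69 at ZT18, against 9.21 at ZT12, a difference of -0.52 (SE 0.14, limma adjusted p = 0.00891). For both, all ZT18 arrays lay below all ZT12 arrays, as they did in 27.5% of the tested probe sets.

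LPA66 was 8.45 at ZT18, against 9.14 at ZT12, a log2 difference of -0.69 (SE 0.21, limma adjusted p = 0.0179), and its arrays did not overlap either. The call was lost, with adjusted p-values of 0.0582, 0.0585 and 0.0683, without replicate 2 of ZT12, replicate 3 of ZT12 or replicate 1 of ZT18, and with no filter (0.0576). OTP84 had 5.65 at ZT18, against 6.22 at ZT12, a difference of -0.57 that did not pass (SE 0.27, limma adjusted p = 0.0939). Its spread at ZT18 came mostly from replicate 2, at 6.17, and without that array the adjusted p was 0.0224.

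Set against their ZT6 maximum, all 4 factors were lower at ZT18, against 23.4% of the tested probe sets called lower. The log2 differences, ZT18 minus ZT6, were -0.99 for CRR21 (limma adjusted p = 0.000592), -0.98 for LPA66 (0.00234) and -0.68 for CFM3B (0.00174). OTP84 averaged 5.65 at ZT18, against 6.65 at ZT6, and was 2.00-fold lower (limma adjusted p = 0.00786). In each factor every ZT18 array lay below every ZT6 array, as in 29.1% of the tested probe sets. The measured difference of OTP84 between ZT6 and ZT0 was smaller than those of CRR21 and LPA66, and that between ZT18 and ZT6 was about their size. Neither CRR21 nor LPA66 passed the test of pairs below against OTP84. Both a call higher at ZT6 than at ZT0 and a call lower at ZT18 than at ZT6 were made for 4 of 4 factors and for 17.2% of the tested probe sets; the comparisons share the ZT6 arrays.

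At ZT12, 3 of 4 factors were higher than at ZT0, against 25.6% of the tested probe sets. CRR21 differed by 1.35 (limma adjusted p = 3.74e-05), LPA66 by 1.21 (0.000380) and CFM3B by 0.59 (0.00353) on the log2 scale. OTP84 differed by 0.42 and did not pass (SE 0.27, limma adjusted p = 0.202).

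At ZT18, only CRR21 was called higher than at ZT0, which is 1 of 4 factors, against 18.5% of the tested probe sets. It averaged 8.44 at ZT18, against 7.85 at ZT0, a log2 difference of 0.59 (SE 0.18, limma adjusted p = 0.0205). The arrays of the 2 times overlapped, and the call was lost with no filter (adjusted p = 0.0544), with only the 6 arrays compared (0.0706) and on leaving out replicate 1 or 2 of ZT0 or replicate 2 or 3 of ZT18 (0.0512 to 0.0927). LPA66 showed a similar difference of 0.53 that did not pass (SE 0.21, limma adjusted p = 0.0708), but did so without replicate 3 of ZT0 (0.0195) or without replicate 1 of ZT18 (0.0367). CFM3B at 0.07 and OTP84 at -0.15 differed by less than their spread (limma adjusted p = 0.726 and 0.702).

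**Figure D2:**
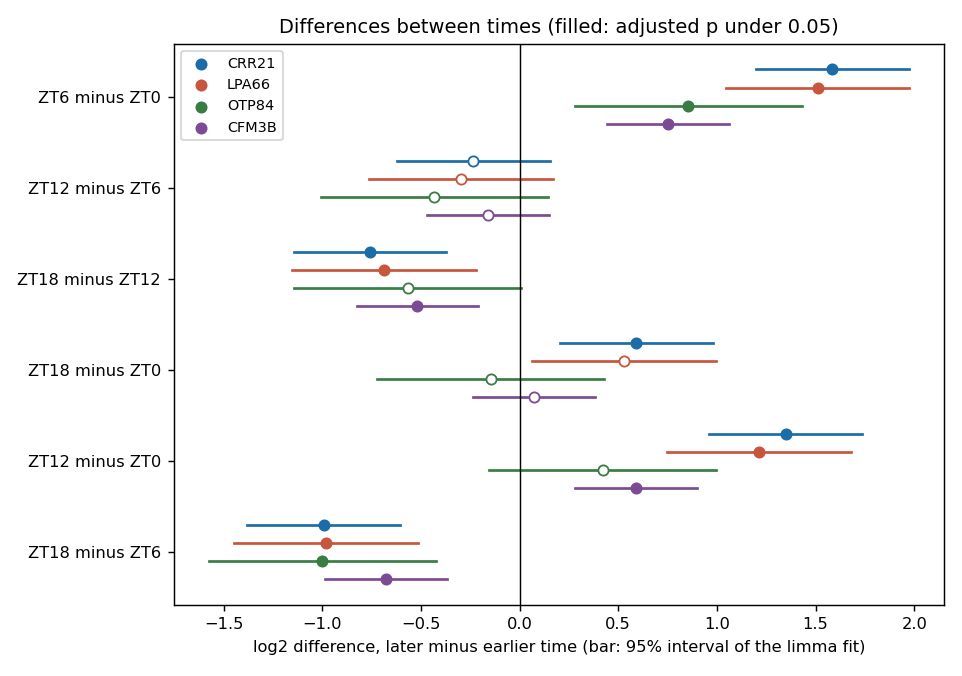
Log2 difference, later minus earlier time (horizontal axis), of each factor in the 6 comparisons of 2 times, with its 95% interval from the limma fit; filled points have an adjusted p under 0.05. All 4 points are filled for ZT6 minus ZT0 and for ZT18 minus ZT6, none for ZT12 minus ZT6, and CRR21 alone for ZT18 minus ZT0.

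A sign of RNA quality moved with the ZT18 group. The signal of actin, GAPDH and ubiquitin control probe sets near the 3' end exceeded that near the 5' end by 3.88 ± 0.27 log2 units on the ZT18 arrays (SD, n = 3), against a mean of 3.25 on the other 9 arrays (p = 0.00455, two-sided, by an exact permutation test with 220 splits). With this measure as a covariate, 4 of 4 factors were still higher at ZT6 than at ZT0. Shares of all tested probe sets called higher or lower are not given for this fit. No count of factors with the covariate is therefore read as particular to them. In ZT18 against ZT12, calls in either direction over all tested probe sets numbered 3721 with the covariate and 7078 without it. Of the 4 factors, 1 was called lower, LPA66, at a log2 difference of -1.17, against -0.69 without the covariate (limma adjusted p = 0.0146). CRR21 kept a difference of -0.84, against -0.76 without the covariate, with a larger SE of 0.29 (limma adjusted p = 0.0509), and CFM3B had -0.37, against -0.52 (SE 0.22, limma adjusted p = 0.251).

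In ZT18 against ZT6, CRR21 and LPA66 were called lower with the covariate, which is 2 of 4, a count not read as particular to the factors. OTP84 had a log2 difference of -0.86 there (SE 0.39, limma adjusted p = 0.115), and CFM3B had -0.55, against -0.68 without the covariate (SE 0.20, limma adjusted p = 0.0547). In ZT18 against ZT0, calls over all tested probe sets numbered 2788 with the covariate and 5187 without it. CRR21 had a difference of 0.51 there, against 0.59 without the covariate, with an SE of 0.28 (limma adjusted p = 0.215), while LPA66 had 0.07, against 0.53 (SE 0.29, limma adjusted p = 0.879). The limma F-test of OTP84 did not pass (adjusted p = 0.0537). The lost calls between 2 times thus went with wider errors. Their differences were also smaller with the covariate, except that of CRR21 in ZT18 against ZT12, which was larger. Because the measure and the time go together, their parts in the ZT18 values cannot be told apart.

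Whether the factors followed 1 shared time course was tested on their difference within each array, for 6 pairs of factors, with an exact permutation test over all 369600 assignments of the arrays to times (one-sided, for a large variation between times). Signals of different probe sets do not share a scale, so only the change of such a difference over time is of interest. The pair that passed in the main setting was CRR21 and CFM3B. CRR21 minus CFM3B averaged -0.77 ± 0.19 at ZT0, 0.07 ± 0.10 at ZT6, -0.01 ± 0.09 at ZT12, with -0.25 ± 0.16 at ZT18 (SD, n = 3 each; exact p = 0.00104, adjusted over the 6 pairs 0.00623). The gap thus shifted by 0.83 log2 units between ZT0 and ZT6, since CRR21 rose more than CFM3B.

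CRR21 minus LPA66 hardly moved, with means of -0.08 ± 0.13 at ZT0, 0.00 ± 0.16 at ZT6, 0.06 ± 0.33 at ZT12, with -0.02 ± 0.10 at ZT18 (SD, n = 3 each; exact p = 0.904, adjusted 0.904). LPA66 minus CFM3B shifted by 0.76 log2 units between ZT0 and ZT6 and did not pass after adjustment (exact p = 0.0409, adjusted 0.0818). This pair passed the exact test with a term for the replicate number (adjusted p = 0.0208) and without replicate 1 of ZT12 (0.0425). Its result thus depended on these choices. CRR21 minus OTP84 shifted by 0.73 units over the same interval (exact p = 0.0346, adjusted 0.0818). The remaining pairs had exact p-values of 0.128 for LPA66 and OTP84 (adjusted 0.192) and 0.554 for OTP84 and CFM3B (adjusted 0.665). A p-value above the threshold does not show that 2 factors had the same time course.

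**Figure D3:**
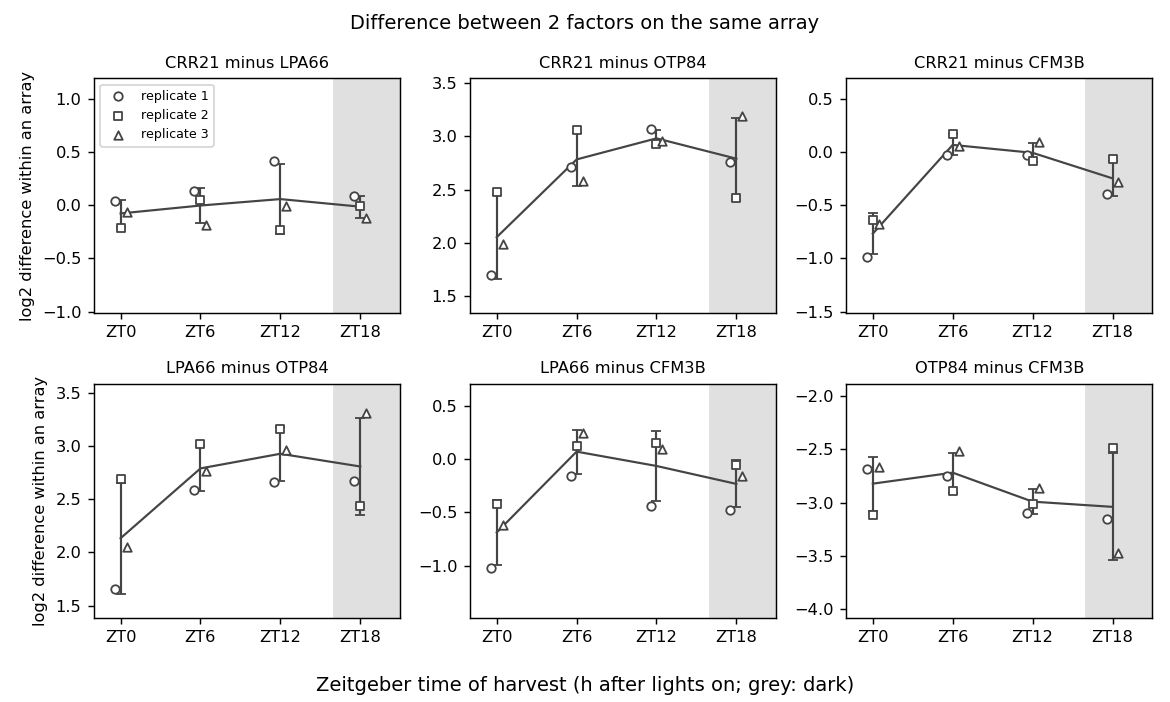
Log2 difference between 2 factors on the same array (vertical axis) against Zeitgeber time in hours, for the 6 pairs; symbols are single arrays by replicate number, and lines and bars are the mean and SD of 3 arrays, with the dark period in grey. CRR21 minus CFM3B lies at -0.77 at ZT0 and near 0 at ZT6 and ZT12, while CRR21 minus LPA66 stays near 0 at all 4 times.

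The genes with the most similar time course were sought among 1111 tested probe sets paired with 1 gene that has a symbol, by the root mean square (RMS) difference of log2 values over the 12 arrays, after each probe set was centred on its own mean. For CRR21 they were CHR24, with an RMS difference of 0.12, MAP1B, with 0.17, and LPA66, also with 0.17, against a median of 0.73 over the genes compared. For LPA66 they were CHR24 at 0.16, CRR21 at 0.17 and FUG1 at 0.20, against a median of 0.71. CHR24 is a chromatin remodelling ATPase of the SNF2 family, MAP1B a methionine aminopeptidase, and FUG1 a chloroplast translation initiation factor. Among the 1111 compared, CRR21 and LPA66 were therefore each among the 3 nearest genes of the other. Tested probe sets paired with 1 gene numbered 7610, and those without a symbol, such as that of AT3G22150, were not compared.

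For CFM3B the nearest genes were GSTL3, a lambda-class glutathione transferase, at 0.11, TMT2, a sugar transporter of the vacuolar membrane, at 0.12, and NQR at 0.13, against a median of 0.48. OTP84 had no gene as near: GR, a glutathione reductase, lay at 0.27, and TMT2 and CFM3B lay at 0.28, against a median of 0.59. A flatter time course lies nearer to most genes, and the points share their arrays, so these distances are a description only.

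Other genes for organelle editing and splicing were set beside the 4 factors, with 21 tested of 34 that had a probe set paired with the gene alone. Of the 21, OTP85, OTP87 and AT3G27550 reached the limit of 4 only through the time at which they were highest, and they are left out of the counts. In the limma fit, at ZT6 against ZT0, 8 of the other 18 rose, against 27.6% of all tested probe sets, and 3 fell, against 28.4%. Their median log2 difference was 0.39, against -0.01 over all tested probe sets. Among 7 further plastid editing PPR genes, 4 rose and none fell. CRR22, which edits ndhB, ndhD and rpoB transcripts, differed by 1.37 (limma adjusted p = 4.39e-05), and AT3G22150, AT3G14330 and AT5G66520 by 1.51, 1.32 and 0.74. OTP81 at 0.43, CRR28 at 0.34 and AT4G37380 at 0.19 did not pass.

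At ZT18 against ZT6, 3 of the 18 genes fell, against 23.4% of all tested probe sets, and 2 rose, against 22.8%. Without replicate 1 of ZT18 none of the 18 was called higher. In the plastid editing list, AT3G22150 fell by 1.18 (limma adjusted p = 0.000423), and AT5G66520 was higher by 0.38 (0.0229). The call for AT5G66520 was lost without replicate 1 of ZT18 (limma adjusted p = 0.0543), without replicate 1 or 2 of ZT6 (0.0959 and 0.0540) and with the 3' to 5' covariate (0.177). CRR22 differed by -0.02 (limma adjusted p = 0.933), against -0.99 for CRR21, so its mean at ZT18, 5.99, was close to its mean at ZT6, 6.02, and higher than the 4.65 at ZT0 (difference 1.34, limma adjusted p = 0.000201). CRR28, which acts on ndhB and ndhD transcripts, was higher at ZT18 than at ZT12 by 0.57 (limma adjusted p = 0.0145). CRR21 and LPA66 fell in this comparison. Of the 18 genes, 3 were called higher there, also with the covariate, and 2 without replicate 1 or without replicate 2 of ZT18. Which gene lost its call is not given here, so the call for CRR28 may depend on an array. Whether these genes differ from the 4 factors was not tested beyond each gene's own comparisons. In the editing cofactor list, the 1 tested gene, AT1G73530, rose by 1.14 at ZT6 against ZT0 and differed by -0.48 at ZT18 against ZT6 (limma adjusted p = 9.10e-06 and 0.00780; the second was 0.116 with the 3' to 5' covariate).

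In the plastid splicing list without CFM3B, 3 of 6 genes rose at ZT6 against ZT0, against 27.6% of all tested probe sets. None fell, against 28.4%, and 6 genes are too few to read a direction from. CFM3A, also related to maize CFM3, differed by 0.98 at ZT6 against ZT0 (limma adjusted p = 6.16e-05), beside 0.75 for CFM3B, and by -0.71 at ZT18 against ZT6 (0.00110), beside -0.68 for CFM3B. CAF1, a CRM-domain partner in splicing of several group II introns, rose by 0.62 (0.00793), and AT5G38290 rose by 0.68 (0.00221). The plastid-encoded maturase matK differed by 0.19, AT5G16140 by -0.03 and AT5G04810 by -0.15, and none of these passed.

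For mitochondrial editing and splicing, 4 genes were counted. Of 3 editing genes counted, AT1G32580 and AT5G54580 fell by 0.42 and 0.65 at ZT6 against ZT0 (limma adjusted p = 0.0147 and 0.00314), and AT3G03580, at 0.30, did not pass. The splicing gene AT5G46920 fell by 0.59 in this comparison (0.00454) and was higher at ZT18 than at ZT6 by 0.49 (0.0163), a call that was lost without replicate 1 of ZT18 (0.058) or replicate 3 of ZT6 (0.0557). A difference between the plastid and the mitochondrial genes was not tested.

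**Figure D4:**
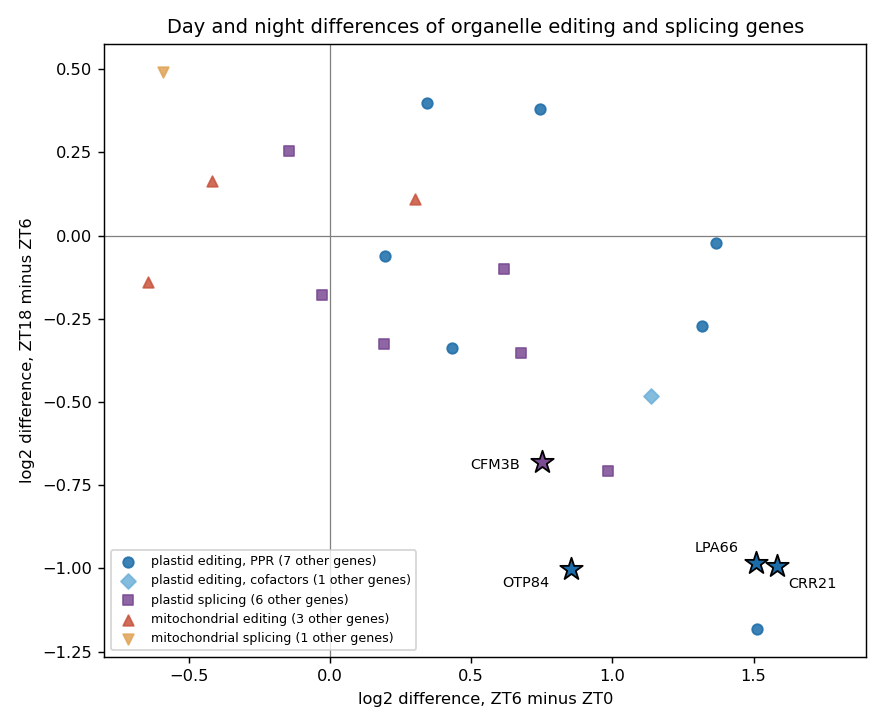
Log2 difference at ZT18 minus ZT6 (vertical axis) against that at ZT6 minus ZT0 (horizontal axis) for the 4 factors and 18 other organelle editing and splicing genes; stars with names are the 4 factors, and the other symbols are the other genes by list. The 4 factors lie at the lower right, above 0.7 and below -0.6, and so do AT3G22150 and CFM3A among the other genes. Both axes use the ZT6 arrays, which ties them together.

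The plastid transcripts on which the editing factors act showed no call in this fit. None of ndhD, psbF and psbZ, nor of psbE, psbL and psbJ, which are transcribed together with psbF, passed the limma F-test or any of the 6 comparisons, in a fit with a mean per time and no term for the replicate number. No F-test among them had an unadjusted p under 0.05 in this fit, and 1 of the 6, psbZ, had one in ZT18 against ZT12, at a log2 difference of -0.54 (adjusted p = 0.0588). With a term for the replicate number, psbZ passed the limma F-test (adjusted p = 0.035), so its result depended on that choice. ndhD, the target of CRR21, averaged 11.96 ± 0.54 at ZT0, 12.07 ± 0.87 at ZT6, 12.24 ± 0.46 at ZT12, with 12.18 ± 0.83 at ZT18 (SD, n = 3 each). psbF, the target of LPA66, averaged 11.42 ± 0.60 at ZT0, 11.84 ± 0.48 at ZT6, 11.50 ± 0.52 at ZT12, with 11.52 ± 0.99 at ZT18 (SD, n = 3 each).

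The spread between replicates was wide for ndhD, psbF and psbE, and for these and psbZ it followed the replicate number. For psbL and psbJ it did not, since replicate 1 was the lowest at only 2 of 4 times for each. Replicate 1 was the lowest of the 3 arrays at 4 of 4 times for ndhD, psbF and psbE, as it was for LPA66, and the highest at 4 of 4 times for psbZ. At ZT18, for example, ndhD had 11.21, 12.59 and 12.72 and psbF had 10.38, 12.24 and 11.93. Synthesis of cDNA was primed with oligo(dT), per the labels' protocols, which copies RNA with a poly(A) tail, and plastid messenger RNA mostly lacks a stable one. The part of this in the replicate spread was not tested.

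**Figure D5:**
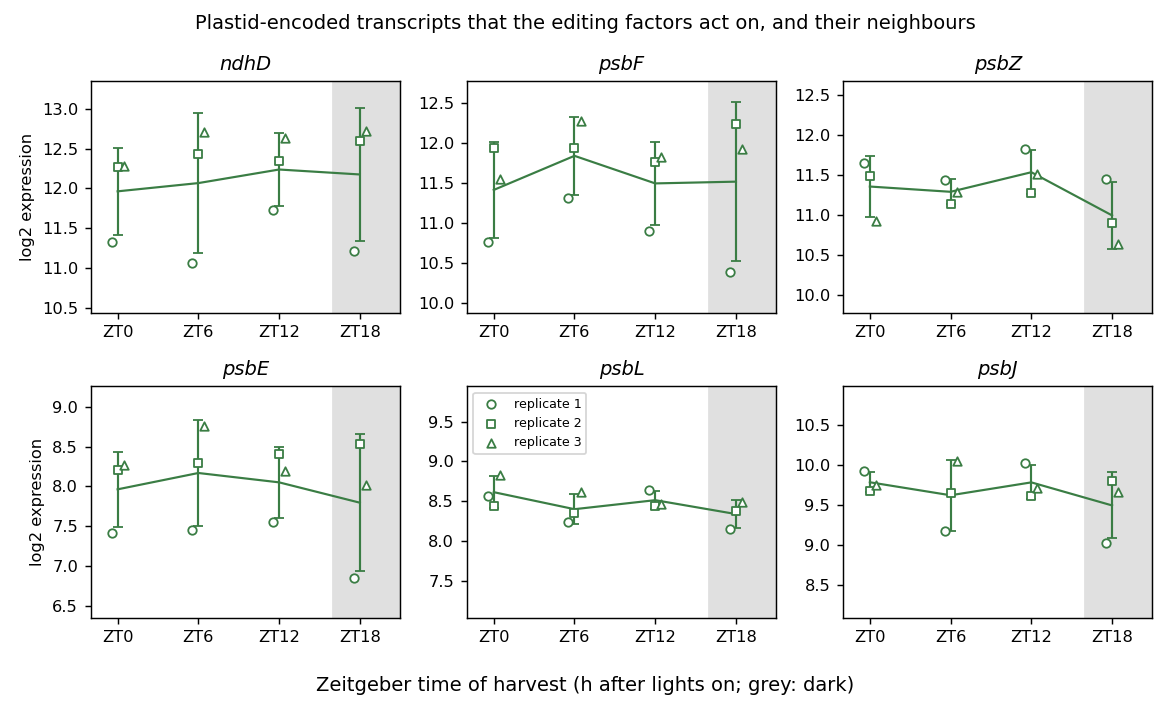
Log2 expression (vertical axis) of 6 plastid transcripts against Zeitgeber time in hours, drawn as for the factors, with single arrays by replicate number and the mean and SD of 3 arrays. Replicate 1 (circles) lies lowest at each time for ndhD, psbF and psbE and highest for psbZ.

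The labelled tissue was checked against marker genes. Of the leaf markers, 2 were measured, RCA (Rubisco activase) and SBPASE (a Calvin cycle enzyme), with means of 13.71 and 12.98 at ZT0, 14.20 and 13.80 at ZT6, 14.29 and 13.98 at ZT12, and 13.91 and 13.62 at ZT18. Both were called higher at ZT6 than at ZT0 and lower at ZT18 than at ZT12, as CRR21, LPA66 and CFM3B were, and their part in the factors' values was not tested. Only 1 of 10 root markers, PYK10, a beta-glucosidase abundant in roots and seedlings, had a probe set paired with it, at means of 12.74 to 13.33, so the absence of root tissue could not be checked. PYK10 too was higher than at ZT0 at ZT6, by 0.40, at ZT12, by 0.59, and at ZT18, by 0.45 (limma adjusted p = 0.0147, 0.00131 and 0.0129), and its part in the factors' values was not tested.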

How the data were processed

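The deposited values were log2 expression per probe set of an Affymetrix array, 1 per array, with no pooling. The submitters' processing notes list R 3.1, GCRMA and affy 1.42.3, without role or order, and further settings are not given in the sources used here. Array medians were 6.27 to 6.43, with a floor of 2.06. Times came from titles, source names and descriptions, which matched on every array; a harvested-at characteristic differed on 9 of 12 arrays and served only as an alternative.

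The array had 22810 probe sets. Without its 64 controls, 14016 that reached 4 on at least 3 arrays were tested. The platform annotation gave 13513 probe sets a single gene, gave 503 more than 1, and left 8730 unlisted, which stay unnamed. Symbols and loci came from RefSeq (TAIR10.1) by Entrez identifier, and those of plastid genes from the platform table. limma 3.58.1 in R 4.3.3 fitted a mean per time over all 12 arrays (lmFit, eBayes with a mean-variance trend), with two-sided moderated tests and Benjamini-Hochberg adjustment within each comparison at 0.05. The fit and the permutation test were tested on simulated data.

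Named were the 4 factors, the 3 nearest genes of each, all tested genes of a list with up to 8 besides the factors, and the plastid targets. With the factors the plastid editing list has 11 tested genes, over the limit of 8, so naming all its genes was decided after their values were seen; the factors and lists were chosen with earlier results of these data known. Counts over the lists leave out 3 genes at the limit only through their highest time, a choice made after their values were seen. Alternatives covered the filter, normalization, variance trend, 3' to 5' signal, replicate block, arrays in the fit and each array left out. Sequences, promoters and coordinates were not analysed here.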

Additional observations from a re-analysis of the deposited data

How the results depend on the processing

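Normalization (median centring, quantile), a filter of 6, and the variance trend changed no call of the 4 factors. With the time taken from the harvested-at characteristic, 0 of 4 factors and 0 of 14016 probe sets passed the limma F-test (0 and 34 at an unadjusted p under 0.05). With the 3' to 5' covariate, calls over all probe sets were 3721 in ZT18 against ZT12 (7078 without it) and 2788 in ZT18 against ZT0 (5187), and the factors called were 1 (3), 0 (1) and, in ZT18 against ZT6, 2 (4). In ZT18 against ZT0, 0 factors passed with no filter or with only the 6 arrays compared, and 0 to 2 with 1 array left out. In ZT12 against ZT6, 297 probe sets were called, but 145 with no filter, 752 with only the 6 arrays compared, and 27 to 466 with 1 array left out: 451 without replicate 3 of ZT0, 165, 27 and 41 without replicates 1, 2 and 3 of ZT6, 102, 107 and 125 without those of ZT12, and 466 without replicate 1 of ZT18. Replicate numbers are not stated to mark a shared batch. Same-numbered arrays deviated together in 9 of 18 pairs (correlation over 0.1, range -0.153 to 0.403). Their median correlation was 0.090, against -0.083 over the 36 other pairs, and 11 of 12 arrays correlated best with their own number. The main fit has no term for the replicate number. With the number as a replicate block, ZT12 against ZT6 had 815 calls, ZT18 against ZT0 had 2 factors called (LPA66 added, adjusted p = 0.00348), psbZ passed the F-test (0.035), and LPA66 minus CFM3B passed the exact test (adjusted p = 0.0208). That pair had 0.0425 without replicate 1 of ZT12, within 0.0425 to 0.29 over arrays left out. The uncalled ZT18 minus ZT0 difference changed sign for OTP84, to 0.015 with the covariate, 0.090 without replicate 3 of ZT0 and 0.029 without replicate 3 of ZT18 (-0.42 to 0.090 over arrays left out), and for CFM3B, to -0.053 without replicate 2 of ZT0 (-0.053 to 0.23). Of the other editing and splicing genes, 8 of 21 were called in ZT18 against ZT6, but 5 with a filter of 6 and 5 without the 3 genes that reached 4 only through their highest time, an alternative chosen after seeing the data. In ZT12 against ZT6 the replicate block gave 1 of 21 a call, against 0 without it (4 at an unadjusted p under 0.05). Causes were not tested.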

Other observations

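Several editing and splicing genes could not be followed at the limit of 4. OTP80 and OTP86, plastid editing PPR genes, had means of 2.06 to 2.07 and 2.06 to 2.08 over the 4 times, at or near the floor of 2.06. OTP70, a plastid splicing gene, had means of 2.06 to 2.15, and OTP43, a mitochondrial splicing gene, 3.61 to 3.78. The plastid transcript ndhF, a target of OTP84, was at or near the floor at every time. The probe set of ndhB, another target of OTP84, is paired with several genes and was not used. OTP85, a plastid editing PPR gene, reached the limit on 4 arrays, with means of 3.82 at ZT0, 4.36 at ZT6, 4.08 at ZT12, then 3.65 at ZT18. OTP87, a mitochondrial editing gene, also reached it on 4 arrays, with means of 3.54 at ZT0, 4.38 at ZT6, 3.82 at ZT12, then 3.54 at ZT18. AT3G27550 reached it on 3 arrays, with means of 3.45 to 4.34. For these, being tested depended on the time at which they were highest, so their differences are not read as changes.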
